A study of Sus scrofa with 2 samples.

Results

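The genes described here are the oxygen-binding globins of blood and muscle and the enzymes at both ends of the heme pathway. Members were entries with the symbol HBB, MB, ALAS1 or ALAS2, or whose protein description named a hemoglobin subunit or chain, myoglobin, 5-aminolevulinate synthase or ferrochelatase. In all, 6 of the 12535 genes detected in at least 1 library were members. They were 3 hemoglobin entries (HBA-like, HBB and HBM-like) and 3 enzyme entries (ALAS1, ALAS2 and FECH). No entry matched MB, the gene of myoglobin, by symbol or by protein description, so myoglobin was not analysed here.

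Heme is an iron-holding porphyrin. Its synthesis begins and ends in the mitochondrion, starting with 5-aminolevulinate synthase, which exists as a housekeeping form (ALAS1) and an erythroid form (ALAS2), and ending with ferrochelatase (FECH), which inserts the iron. Hemoglobin, a tetramer of alpha-type and beta-type globin chains, carries oxygen in red blood cells, and myoglobin stores it inside oxidative muscle fibres. Hemoglobin transcripts in a muscle sample are usually carried by red blood cell precursors and reticulocytes in the vessels, whereas ALAS1 and FECH are used by nearly every cell.

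RNA was taken from the biceps femoris muscle, a muscle of the hind limb, of newborn cloned pigs at Day 1 after birth. Delivery was by caesarean section for all of them, on the same day of gestation in both groups. All piglets came from somatic cell nuclear transfer with fibroblasts of Large White males. The abnormal cloned group, labelled as developmental failure, was a pool of 3 piglets, all from the embryonic fibroblasts of 1 male. The study describes these 3 as having abnormal phenotypes, among them a large tongue, weak muscles and exomphalos. The normal cloned group was a pool of 4 piglets by the study's methods and 3 by the sample labels, and by the methods 2 came from those embryonic fibroblasts and 2 from ear fibroblasts of another male, so that donor and phenotype cannot be told apart. Each pool gave 1 library, hence there is no replicate check and every test below compares the libraries, not the conditions.

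The libraries held 6.38 M (abnormal) and 6.52 M (normal) uniquely mapped reads, summed over the deposited gene tables (a sum that need not match the study's own read total), so that 3 reads correspond to 0.47 and 0.46 RPM (reads scaled to library size). The 13 mitochondrial transcripts took 36.0% of all abnormal-library reads and 46.1% of those in the normal library. Levels are given as RPKM, the reads per kb of transcript scaled to the size of the library, and ratios as the log2 of abnormal over normal RPKM, with 95% intervals that cover counting error only. The median log2 ratio was 0.36 over the 7493 genes that had 10 or more reads in each library, so a gene at 0 lay below the middle of all genes. A gene was called where its FDR, from the Audic-Claverie test with Benjamini-Hochberg adjustment, did not exceed 0.001 and its log2 ratio lay at 1 or above or at -1 or below. That rule called 13.5% of the 12535 genes, with 12% up and 1.45% down in the abnormal library.

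None of the 6 members was called in either direction, although all had at least 10 reads in both libraries. HBA-like and HBB, the globins with most of the hemoglobin reads, were lower in the abnormal library and passed the FDR alone, as did 4.65% of all genes in that direction. ALAS1, ALAS2, FECH and HBM-like did not pass it. On counting error alone, the main hemoglobin transcripts were thus about 1.5-fold lower in the abnormal library while no difference in the enzymes reached the FDR threshold. The enzymes had far fewer reads, so this contrast is not one of size. ALAS1 was 1.7-fold higher in the abnormal library, on 90 and 54 reads.

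**Figure D1:**
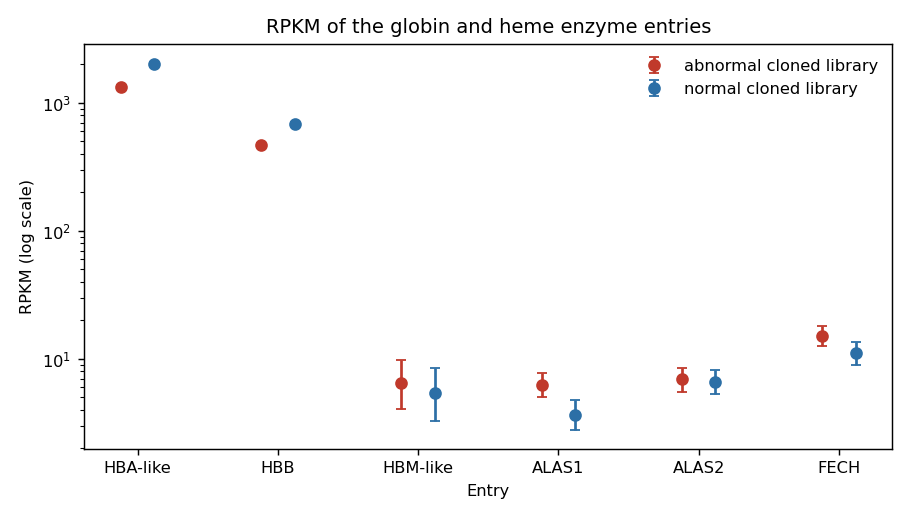
RPKM (log axis) of the 6 entries in the abnormal (red) and normal (blue) cloned library, with bars for the 95% counting interval, 1 library per group. HBA-like stood at 1343 and 2030 RPKM and HBB at 472 and 686 RPKM, whereas the other 4 entries stood between 3.67 and 15.2 RPKM.

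HBA-like (LOC100522428) is an alpha-type globin on chromosome 3, 35253063 to 35253941 on the plus strand of Sscrofa9. It had 5352 reads in the abnormal library against 8266 in the normal, or 1343 and 2030 RPKM. This made it the 44th most abundant transcript by RPKM in the abnormal library and the 31st in the normal library. The log2 ratio was -0.60 (-0.65 to -0.55), 1.51-fold lower in the abnormal library, with an FDR of 2.31e-123 in the Audic-Claverie test with Benjamini-Hochberg adjustment.

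HBB (gene 407066) encodes the beta-type chain and lies on chromosome 9, 3969749 to 3971406 on the minus strand. It had 2692 reads in the abnormal library against 4003 in the normal, or 472 and 686 RPKM, ranks 152 and 108. The log2 ratio was -0.54 (-0.61 to -0.47), 1.46-fold lower in the abnormal library, with an FDR of 1.63e-50 in the same Audic-Claverie test with Benjamini-Hochberg adjustment. Of the other 7492 genes with 10 or more reads in each library, 10.8% had a lower log2 ratio than HBB and 9.61% a lower one than HBA-like. The FDR of both globins rested on counting error as the sole spread. With an assumed biological coefficient of variation of 0.2 in edgeR's exact test, the Benjamini-Hochberg FDR was 0.493 for HBA-like and 0.57 for HBB.

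The alpha and beta chains kept nearly the same proportion in both pools. There were 1.99 HBA-like reads per HBB read in the abnormal library against 2.06 in the normal, a ratio of 0.963 (0.907 to 1.02) between the libraries (Fisher's exact test, two-sided, p = 0.216, the same after adjustment over the 6 ratios tested). Per length, the RPKM of HBA-like was 2.85 and 2.96 times that of HBB. Only uniquely mapped reads were counted, so reads shared between near-identical alpha-globin copies would be missing from this proportion.

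HBM-like (LOC100522246), annotated as hemoglobin subunit mu-like, is a minor alpha-type globin that lies 1746 bases from HBA-like on chromosome 3, 35250526 to 35251316. It had 22 reads in the abnormal library against 19 in the normal, or 6.44 and 5.44 RPKM, far below the other globins. The log2 ratio was 0.24 (-0.71 to 1.21), with an FDR of 0.871 in the Audic-Claverie test with Benjamini-Hochberg adjustment. The interval reached well above and below 0, so no difference was detectable at this depth, and the sign of the ratio turned under 4 of 5 other scalings.

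Together the 3 hemoglobin entries held 8066 reads in the abnormal library against 12288 in the normal. That was 0.126% (Wilson 95% interval 0.1237 to 0.1293) of all reads in the abnormal library against 0.189% (0.1853 to 0.1919) in the normal. Of the reads outside the mitochondrial transcripts they took 0.198% (0.1934 to 0.202) and 0.35% (0.3437 to 0.3561). The gap between the libraries was therefore wider once the mitochondrial reads, whose share also differed, were set aside. In a bulk muscle sample, fewer red blood cells and less globin RNA per cell cannot be told apart.

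Since myoglobin had no entry, hemoglobin reads were instead set against 3 abundant muscle transcripts, a choice made after the data were seen. Against ACTA1, the skeletal muscle actin of the thin filament, there were 18.7 hemoglobin reads per 1000 ACTA1 reads in the abnormal library against 31.5 in the normal, a ratio of 0.593 (0.577 to 0.61). Against MYLPF, the fast myosin regulatory light chain, there were 57.5 and 93.6 per 1000, a ratio of 0.614 (0.596 to 0.632). Against the larger entry of TTN, the giant protein titin of the sarcomere, there were 67.3 and 95.5 per 1000, a ratio of 0.705 (0.684 to 0.725). Hemoglobin was lower against each of these 3, but the direction depended on the reference. The smaller TTN entry, with 304 reads in the abnormal library against 678 in the normal, was itself called down and was not used as a reference. Against the 3 called slow fibre transcripts with the most reads, MYL2, MYL3 and TNNC1, which were themselves far lower in the abnormal library, the hemoglobin reads were higher there, with ratios of 5.45, 5.52 and 6.07, given without a test. With HBB alone the ratio to ACTA1 was 0.608, and without HBB it was 0.586. Fisher's exact test (two-sided, Benjamini-Hochberg over 6 ratios) gave adjusted p = 7.38e-290, 4.44e-242 and 4.64e-124 for ACTA1, MYLPF and TTN, values that reflect the read numbers of 2 libraries and no spread between piglets.

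**Figure D2:**
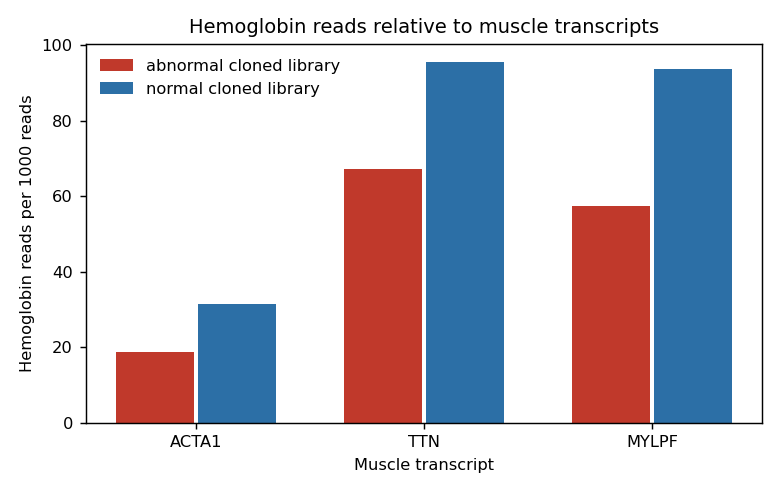
Hemoglobin reads (HBA-like, HBB and HBM-like summed) per 1000 reads of ACTA1, TTN or MYLPF in the abnormal (red) and normal (blue) cloned library, linear axis from 0, 1 library per group. The abnormal library was lower against each transcript, at 18.7 and 31.5 for ACTA1, 67.3 and 95.5 for TTN, and 57.5 and 93.6 for MYLPF.

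Among the enzymes, ALAS1 supplies heme in most tissues and is the usual point of control of the pathway outside red cells. Its entry (ENSSSCG00000011427, chromosome 13, 28804063 to 28818517 on the plus strand) carries no symbol in the files and was found by the description of a nonspecific 5-aminolevulinate synthase. It had 90 reads in the abnormal library against 54 in the normal, or 6.25 and 3.67 RPKM. The log2 ratio was 0.77 (0.27 to 1.28), higher in the abnormal library, and the FDR of 0.00799 in the Audic-Claverie test with Benjamini-Hochberg adjustment missed the threshold. The reads covered only 16.08% and 16.04% of the 2257 bases of the entry. In entries with like read numbers and lengths the median coverage was 74.2% and 57.0%, and 1.3% and 1.88% of them were covered less than ALAS1. The level of ALAS1 therefore rests on a small stretch of its gene model, and whether it understates the gene was not tested.

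ALAS2, the form used by red blood cell precursors (ENSSSCG00000012347, chromosome X, 47573786 to 47597191 on the plus strand), also carries no symbol in the files. It had 86 reads in the abnormal library against 84 in the normal, or 6.92 and 6.61 RPKM, over 78.67% and 75.9% of its bases. The log2 ratio was 0.06 (-0.39 to 0.52), with an FDR of 0.977 in the Audic-Claverie test with Benjamini-Hochberg adjustment. Its sign turned under all 5 other scalings of the libraries, to between -0.33 and -0.15, so no direction is given for ALAS2.

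FECH (gene 100322873, chromosome 1, 110025549 to 110046905 on the minus strand) had the highest level of the enzymes, with 123 reads in the abnormal library against 92 in the normal, or 15.2 and 11.1 RPKM. The log2 ratio of 0.45 (0.05 to 0.86) lay close to the median of all genes, and the FDR of 0.0744 in the Audic-Claverie test with Benjamini-Hochberg adjustment did not pass.

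The proportions among these transcripts do not depend on how the libraries are scaled. Relative to the globins, ALAS2 was higher in the abnormal library. There were 10.7 ALAS2 reads per 1000 hemoglobin reads in the abnormal library against 6.84 in the normal, a ratio of 1.56 (1.14 to 2.14) between the libraries (Fisher's exact test, two-sided, p = 0.00448, adjusted p = 0.00672 over the 6 ratios). Per ALAS1 read there were 0.956 ALAS2 reads in the abnormal library against 1.56 in the normal, a ratio of 0.614 (0.381 to 0.989; Fisher's exact test, two-sided, p = 0.0401, adjusted p = 0.0481). With total reads ALAS2 was nearly even (86 and 84 reads) and ALAS1 was not (90 and 54). Under TMM, however, the log2 ratios were -0.33 for ALAS2 and 0.37 for ALAS1, so the lower ratio cannot be assigned to either transcript. The ALAS1 reads cover only a small stretch of that entry, and the interval of the ratio came close to 1. With 1 library per group these p-values again cover counting error only. The 6 ratios include hemoglobin against ACTA1, MYLPF and TTN, whose very small p-values ease the adjustment of the rest.

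**Figure D3:**
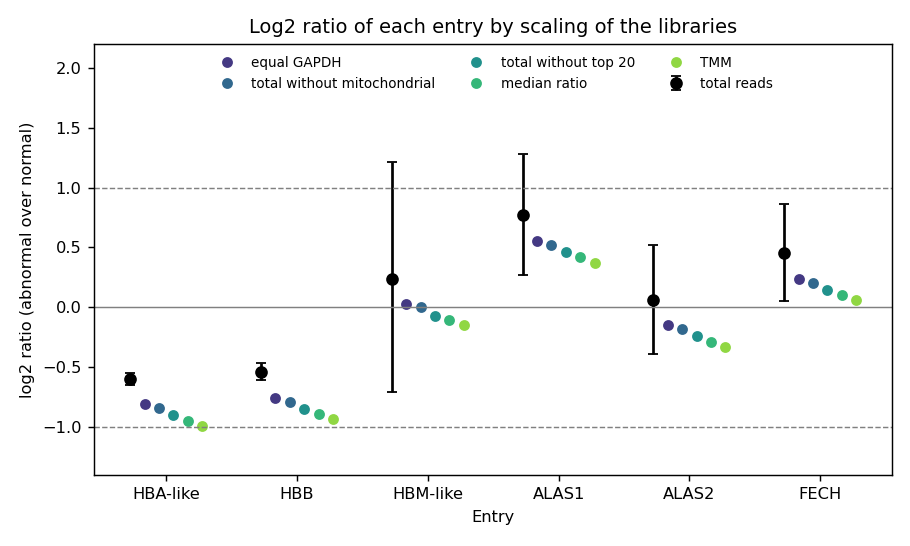
Log2 ratio (abnormal over normal) of the 6 entries with the libraries scaled to total reads (black, bars for the 95% counting interval) and under 5 other scalings (colours), with dashed lines at 1 and -1, 1 library per group. HBA-like ran from -0.60 to -0.99 and HBB from -0.54 to -0.93, so both stayed below 0 and short of -1, whereas ALAS2 and HBM-like crossed 0.

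The scaling moved every log2 ratio by the same amount. The shift was -0.35 with DESeq2's median ratio, -0.39 with TMM, -0.25 without the mitochondrial transcripts, -0.31 without the 20 most abundant transcripts and -0.21 at equal GAPDH, the glycolytic enzyme often used as a reference. HBA-like then lay between -0.99 and -0.81 and HBB between -0.93 and -0.76, which brought HBA-like to the edge of a call under TMM. ALAS1 stayed above 0, from 0.37 to 0.55, and so did FECH, from 0.06 to 0.24.

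The genes nearest to HBB in log2 ratio, among 109 with a symbol and a normal-library RPKM within 2-fold of HBB, were ATP5D, RPL38 and RPL35. ATP5D, a subunit of the mitochondrial ATP synthase, lay at -0.55, with 1691 and 2524 reads. RPL38 and RPL35, proteins of the large ribosomal subunit, had log2 ratios of -0.53 and -0.52. This likeness is over 2 libraries. They were chosen for this closeness, which is a description and no test.

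The other enzymes of heme synthesis were mostly uncalled too. Of 11 listed symbols, 10 had an entry (not ALAD), and 2 of the 10 entries were called up and none down, beside 12% and 1.45% of all genes. The median log2 ratio of the list, ALAS1, ALAS2 and FECH included, was 0.27, beside 0.35 over all genes. CPOX, which makes protoporphyrinogen in the mitochondrial intermembrane space, rose from 48 reads in the normal to 131 in the abnormal library, a log2 ratio of 1.48 (0.99 to 1.99) and an FDR of 1.52e-09. CLPX, the mitochondrial unfoldase that also activates ALAS, rose from 105 to 352 reads, a log2 ratio of 1.78 (1.46 to 2.10) and an FDR of 5.8e-32. Both FDRs are from the Audic-Claverie test with Benjamini-Hochberg adjustment.

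The uncalled steps between them moved less. UROS and UROD, which close and decarboxylate the ring, had log2 ratios of 0.28 (333 and 281 reads) and 0.26 (159 and 136 reads). PPOX, the step before ferrochelatase, lay at a log2 ratio of -0.15 (100 and 113 reads). TMEM14C, which carries the porphyrin precursor across the inner mitochondrial membrane, lay at -0.18 (462 and 534 reads). Of these, the signs of UROS and UROD turned under 3 of the 5 other scalings.

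**Figure D4:**
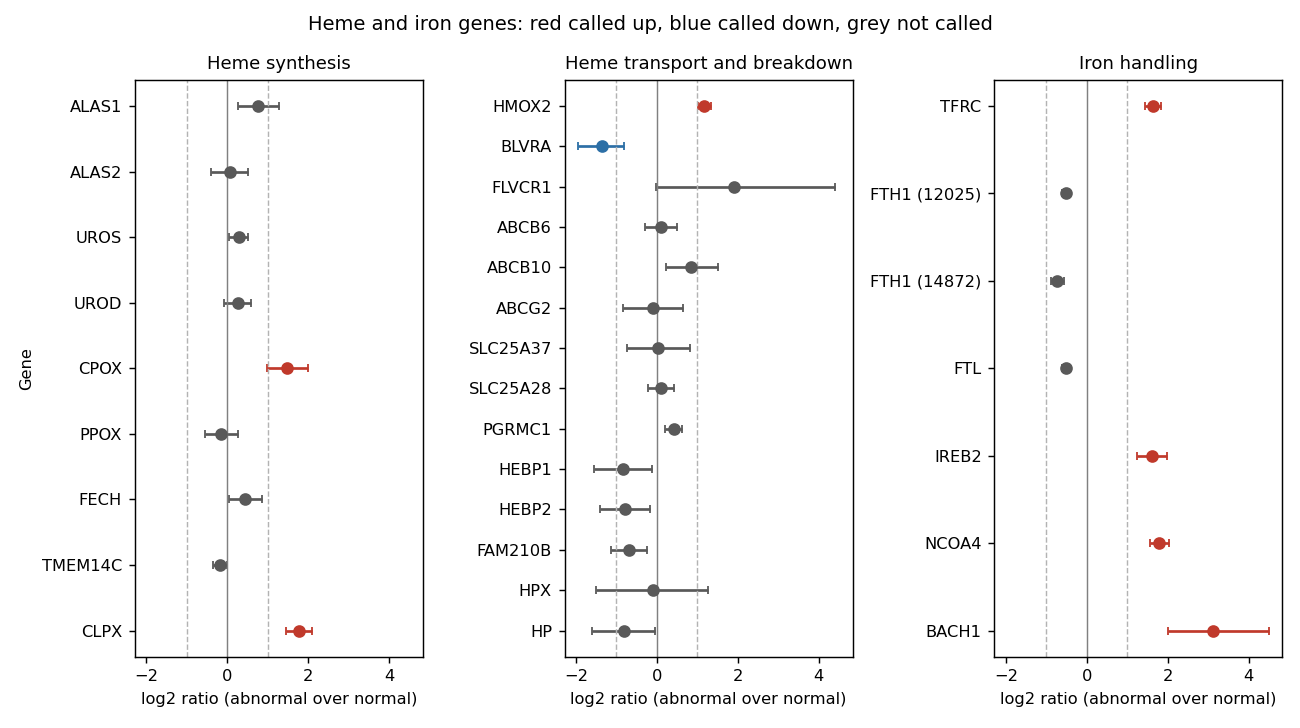
Log2 ratio (abnormal over normal) with 95% counting intervals of the listed genes of heme synthesis, of heme transport and breakdown, and of iron handling that the text names and that had at least 10 reads in all, 1 library per group; red was called up, blue called down and grey not called. CPOX, CLPX, HMOX2, TFRC, IREB2, NCOA4 and BACH1 were up, and BLVRA was down at -1.37.

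Heme transport and breakdown had entries for 15 of 22 symbols, with 1 called up, 1 called down (13.3% called, beside 13.5% of all genes) and a median log2 ratio of 0.03. HMOX2, the constitutive heme oxygenase that opens the heme ring to biliverdin, rose from 470 reads in the normal to 1034 in the abnormal library, with a log2 ratio of 1.17 (1.01 to 1.33) and an FDR of 6.45e-50. This call was lost under all 5 other scalings, where the log2 ratio was 0.78 to 0.95. BLVRA, the reductase that turns biliverdin into bilirubin, fell from 98 to 37 reads, with a log2 ratio of -1.37 (-1.96 to -0.82) and an FDR of 1.3e-06 in the same Audic-Claverie test with Benjamini-Hochberg adjustment. The enzymes of the consecutive steps of heme breakdown were thus called in opposite directions, one of them dependent on the scaling. HMOX1, the inducible heme oxygenase, had no entry and was not analysed here.

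The 13 remaining genes of that list were not called. Among the membrane transporters, FLVCR1, a heme exporter, had 11 reads in the abnormal library against 3 in the normal. The ABC transporters of the mitochondrion and plasma membrane gave 110 and 105 reads for ABCB6, 60 and 34 for ABCB10, and 32 and 35 for ABCG2. Mitoferrins, which bring iron into the mitochondrion, were even, with 30 and 30 reads for SLC25A37 and 160 and 153 for SLC25A28. The heme-binding proteins lay on both sides of 0. PGRMC1 had a log2 ratio of 0.42, HEBP1 -0.83, HEBP2 -0.78 and FAM210B, a mitochondrial protein of erythroid heme synthesis, -0.68. The plasma scavengers had few reads, with 10 and 11 for hemopexin (HPX) and 24 and 43 for haptoglobin (HP).

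Iron handling had 20 entries for 15 of 22 symbols, of which 4 were called up and none down (20% called up, beside 12% of all genes), with a median log2 ratio of 0.33. TFRC, the transferrin receptor that takes up iron, rose from 259 to 788 reads, a log2 ratio of 1.64. NCOA4, which delivers ferritin for breakdown, rose from 199 to 670 reads, a log2 ratio of 1.78. IREB2, which binds the iron-responsive elements of TFRC and ferritin transcripts, rose from 84 to 249 reads, a log2 ratio of 1.60. BACH1, a heme-binding repressor of globin and heme oxygenase genes, rose from 7 to 60 reads, a log2 ratio of 3.13 (2.0 to 4.51) on few reads. Their FDRs in the Audic-Claverie test with Benjamini-Hochberg adjustment ran from 2.59e-63 to 7.46e-11.

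Ferritin, which stores iron, lay on the other side without being called. FTL, its light chain, had 2075 reads in the abnormal library against 3030 in the normal, a log2 ratio of -0.52. Of the entries described as its heavy chain (FTH1), those with the most reads had log2 ratios of -0.51 and -0.73, and ferritin has near-identical copies in the genome that unique mapping may split. Under the median ratio, under TMM and without the 20 most abundant transcripts 1 entry, the second of these, was called down. Cytoglobin, the other globin with an entry, had 2 reads in each library, under the floor of 3 reads, and neuroglobin had no entry.

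Many red blood cell markers other than globin had few reads or no entry, and a missing entry says nothing of the level of a gene. Of 26 erythroid symbols 16 had an entry, in 19 entries, with 3 called up and 1 down (21.1% called, beside 13.5% of all genes) and a median log2 ratio of 1.06 (0.73 with entries at 0 in 1 library set at their bound). Most of their reads came from SPTB, EPB41 and ANK1, the spectrin, protein 4.1 and ankyrin genes that skeletal muscle also expresses. With these left out, a choice made after the data were seen, 13 entries remained with 220 reads in the abnormal library against 252 in the normal, 1 called up (BPGM, 36 and 9 reads) and 1 down (CA2, 9 and 36 reads). The call of BPGM was lost under all 5 other scalings, with an FDR of 0.00157 to 0.00616 in the Audic-Claverie test with Benjamini-Hochberg adjustment. The defining membrane proteins had few reads, with 21 and 5 for SLC4A1 (band 3) and 13 and 8 for EPB42 (protein 4.2), while GYPC (glycophorin C) had 101 and 169, a log2 ratio of -0.71. These red cell markers lay on both sides of 0, GYPC and CA2 on the same side as the globins and SLC4A1, EPB42 and BPGM on the opposite side, and a shared direction was not tested. NFE2 had 2 and 0 reads (abnormal and normal), and EPOR, the erythropoietin receptor, 0 and 2, both under the floor of 3 reads. Among the transcription factors, KLF1 and GATA1 had no entry and were not analysed here, and TAL1 had 7 and 10 reads.

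Other lists held markers of white blood cells and platelets, and plasma and liver proteins. Reads of plasma protein genes count their transcripts and do not measure plasma. Of 16 leukocyte and platelet symbols 8 had an entry. The platelet symbols PF4, PPBP, ITGA2B and GP9 had none, so platelets were not analysed here. The 8 leukocyte entries summed to 52 reads in the abnormal library against 84 in the normal. None was called in the Audic-Claverie test, and their median log2 ratio was -0.55. PTPRC, the pan-leukocyte CD45, had 5 and 22 reads. Plasma and liver protein entries summed to 365 and 751 reads, of which APOA1, an apolipoprotein, alone had 298 and 281. Of 10 entries 9 were lower in the abnormal library. The median log2 ratio was -2.71 (-1.85 with entries at 0 in 1 library set at their bound). Called down were 4 of the 10 (40%, beside 1.45% of all genes), and none was called up. ALB (albumin) had 12 reads in the abnormal library against 271 in the normal. The other called entries were FGB (4 and 36 reads), FGA (0 and 19) and AHSG (0 and 34). The part of blood content in the globin difference was not tested.

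The muscle marker ACTA1 was abundant in both libraries, at 42258 RPKM (abnormal) and 37387 RPKM (normal). Of the 8 muscle marker symbols 3 had an entry, in 4 entries. The smaller TTN entry was called down (25% called, beside 13.5% of all genes), with a log2 ratio of -1.13, and none was called up. Slow and oxidative fibres are those that hold most myoglobin. Of 12 entries of their list 6 were called down (50%, beside 1.45% of all genes) and none up, with a median log2 ratio of -0.80. MYH7, the slow myosin heavy chain, had 120 reads in the abnormal library against 1407 in the normal, over only 3.75% and 3.97% of its bases. Of 10 fast fibre entries 2 were called up (MYH4 and PVALB, 20%, beside 12% of all genes) and none down, with a median of 0.58. The MYH4 entry overlaps that of MYH2, and its reads covered 1.6% and 1.48% of its bases. How far such thin coverage bears on the ratios of MYH7 and MYH4 was not tested. Hemoglobin, at -0.60 and -0.54 for its main chains, thus lay between the median of the slow fibre list and that of all genes, and nothing can be read from this about myoglobin.

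**Figure D5:**
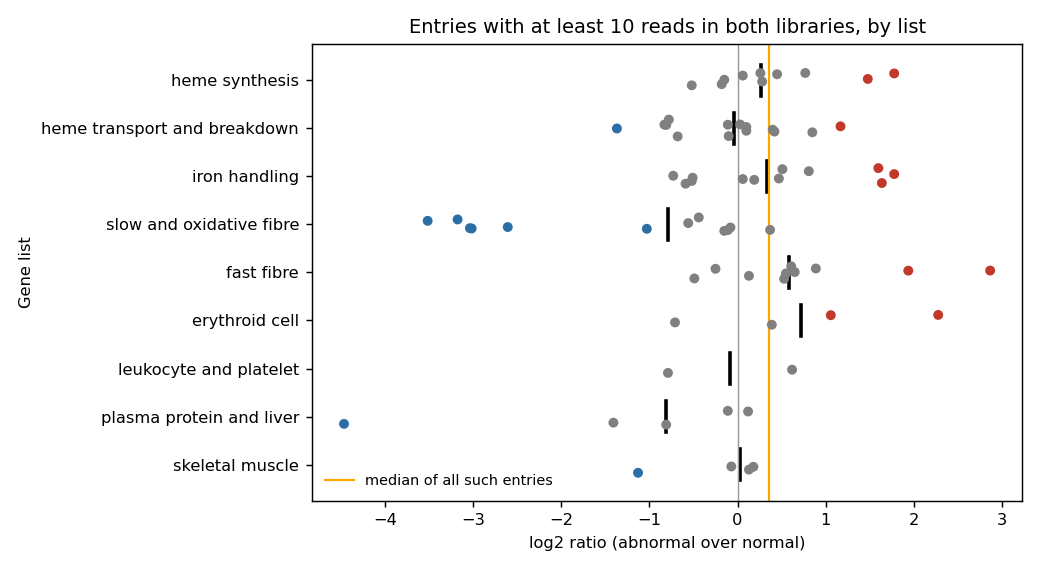
Log2 ratio (abnormal over normal) of each list's entries with at least 10 reads in both libraries, 1 point per entry (red called up, blue called down, grey not called), with a black bar for the list's median and an orange line at 0.36, the median of all 7493 such genes. Slow and oxidative fibre entries reached -3.52, for MYH7, whose reads covered only 3.75% and 3.97% of its bases. The medians of the heme synthesis and iron handling lists, 0.27 and 0.33, lay near the orange line.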

How the data were processed

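RNA-seq of 1 pooled library per group was used. The authors aligned the reads with SOAPaligner/soap2 to the transcripts of Sscrofa9 (up to 2 mismatches), and the deposited count of a transcript holds its unique reads, not normalized. The authors also deposited RPKM and the percent of each transcript covered by reads (coverage). Transcripts without reads in a library were taken as 0. RPKM recomputed from the deposited counts differed by at most 3.3e-08 in relative size. For 10 genes the tables gave unlike lengths.

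The members and gene lists were chosen with earlier results of these data known. Entries were matched by symbol, and by protein description where the files give none. Of 140 list symbols 94 had an entry. The genes named were all members, all genes with reads of the heme and globin lists, and of other lists the called genes and the 3 with most reads, of which those bearing on blood, iron and fibre type are printed, and the 3 nearest to HBB. A few list genes, included in the counts, are not reported here by name.

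The Audic-Claverie test (two-sided by doubling, counting error only) was run over 12535 genes with Benjamini-Hochberg adjustment, an RPKM of 0 being set to 0.001. Log2 intervals are exact 95% binomial intervals of how a gene's reads split between the libraries. Ratios of transcripts were compared by Fisher's exact test, with exact conditional intervals or, against muscle transcripts, Woolf intervals. The planned ratio of globin to myoglobin could not be computed without a myoglobin entry and was replaced by ratios to ACTA1, TTN and MYLPF. The ratio of ALAS2 to ALAS1 was planned, whereas those of alpha to beta chain and of ALAS2 to hemoglobin were added. No model with replicates could be fitted. Scaling alternatives used edgeR 4.0.16 (TMM, exact test) and DESeq2 1.42.0 (size factors) in R 4.3.3, and other values scipy 1.17.1 in Python 3.11.15. Scripts were tested on simulated data.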

Additional observations from a re-analysis of the deposited data

How the results depend on the processing

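No paired analysis was possible because each group has 1 library. For the same reason no replicate could be left out, and precision is limited by 6.38 M and 6.52 M reads. Other forms of the globin to myoglobin ratio were not run, since no entry matched myoglobin, nor was a ratio by the symbols ALAS1 and ALAS2 alone, which no entry carries. The number of members called stayed 0 in each direction under all 12 alternatives. Only the 5 other scalings could have changed this, because the rest leave the log2 ratios of the members as they were or smaller in size. The nearest to a call was HBA-like, at -0.99 under TMM. The ratio of hemoglobin to ACTA1 ran from 0.586 to 0.705 with TTN or MYLPF as the reference, with HBB alone and without HBB, but was reversed, at 5.45, 5.52 and 6.07, with the slow fibre transcripts MYL2, MYL3 and TNNC1, added after the data were seen. The ratio of ALAS2 to hemoglobin was 1.52 with HBB alone. The ratios of alpha to beta chain and of ALAS2 to ALAS1 were recomputed on RPKM only, which leaves them the same by construction. Fisher's exact test in place of the Audic-Claverie test changed no call of the 59 other genes compared.

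The scaling decided the sign of members near 0. Under DESeq2's median ratio, TMM, totals without the mitochondrial transcripts and totals without the 20 most abundant transcripts, the log2 ratio of HBM-like was -0.11, -0.15, -0.00 and -0.07. That of ALAS2 was -0.29, -0.33, -0.18 and -0.24, and -0.15 at equal GAPDH. In the same order of those 4 scalings, genes called up numbered 822, 751, 987 and 882 (1510 with total reads) and genes called down 490, 548, 369 and 424 (182 with total reads), with 337 down at equal GAPDH. With a coefficient of variation of 0.4 assumed in edgeR's exact test, 2 genes were called up and 1 down, and at 0.2, 243 and 20. A log2 ratio of at least 2 left 415 up and 42 down, and an FDR of at most 0.05 gave 342 down.

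In the lists, an assumed coefficient of variation of 0.4 left 0 calls in every list that had any. At 0.2 there were 0 up for heme synthesis, 0 in both directions for heme transport and breakdown, 1 up for iron handling, 1 up and 0 down for erythroid markers, 2 down for plasma proteins and 0 down for skeletal muscle. A log2 ratio of at least 2 left 0 up for heme synthesis, 0 in both directions for heme transport, 1 up for iron handling and for fast fibre, and 0 down for erythroid and skeletal muscle markers. Under each of the 5 scalings heme transport had 0 called up and erythroid markers 1 up. With the median ratio, with TMM and without the top 20, heme transport had 3, 3 and 2 called down, and there was 1 down for iron handling, 2 for erythroid and 1 for leukocyte markers. At an FDR of at most 0.05 there were 5 erythroid entries up, 1 iron entry down and 1 leukocyte entry down. At least 10 reads in both libraries left 0 erythroid entries down and 1 plasma protein down. Without SPTB, EPB41 and ANK1, 1 erythroid entry was up.

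Genes that were not called with total reads changed sign as follows with the median ratio, TMM and totals without the top 20: UROS to -0.08, -0.12 and -0.03, and UROD to -0.10, -0.14 and -0.05. With these 3, totals without mitochondrial transcripts and equal GAPDH, in that order, SLC25A37 and cytoglobin went to -0.32, -0.36, -0.28, -0.22 and -0.18, ABCB6 to -0.25, -0.30, -0.21, -0.15 and -0.12, SLC25A28 to -0.26, -0.30, -0.21, -0.15 and -0.12, MYLPF to -0.22, -0.27, -0.18, -0.12 and -0.09, APOA1 to -0.24, -0.28, -0.19, -0.13 and -0.10, and ACTA1 to -0.18, -0.22, -0.13, -0.07 and -0.04. The most abundant ankyrin entry went to -0.00 with TMM.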

Other observations

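Heme is also the source of the heme groups of the respiratory chain, and the genes of those side branches were looked at after their values were seen. HCCS, which attaches heme to cytochrome c, had 151 reads in the abnormal library against 63 in the normal, a log2 ratio of 1.29 (0.86 to 1.74) that was called up (FDR 5.1e-09 in the Audic-Claverie test with Benjamini-Hochberg adjustment). That call was lost under 3 of 5 other scalings, at log2 ratios of 0.94 (median ratio), 0.90 (TMM) and 0.98 (without the 20 most abundant transcripts). A COX10-like entry, described as the farnesyltransferase that makes heme A for cytochrome oxidase, had 110 and 37 reads, a log2 ratio of 1.60 (1.05 to 2.18) and an FDR of 4.91e-09 in that test, and was called under all 5, at 1.21 to 1.39. A second COX10 entry nearby on chromosome 12 had 16 and 6 reads and was not called. These entries may be pieces of 1 gene model.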
